A study of Homo sapiens with 10 samples.

Results

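The connexin and pannexin channel genes described here are 8 genes of the 58735 lines in the deposited count table: GJA1, GJA3, GJA4, GJA5, GJB2 and GJC1, which encode gap junction connexins, and PANX1 and PANX2, which encode pannexins. They were taken by symbol from a list selected on measured values, the siUSP9X over siCtrl differences in these same libraries. The members' differences are therefore a description with no p-value, also where a fit across all genes places a member past or short of its threshold. The 10 bulk RNA-seq libraries came from a human cell line of brain endothelium, named HCMECs in the labels. In the 5 siUSP9X libraries the cells had been transfected for 48 h with an siRNA against USP9X, a deubiquitinase, and in the 5 siCtrl libraries with a control siRNA. Wnt3a, a Wnt/beta-catenin ligand, was then given to both groups for 12 h, so no value here comes from cells without Wnt3a or without transfection. Nothing in the labels ties a library to its own culture, so p-values measure only the spread between libraries, which may be technical.

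Connexins are membrane proteins that assemble into hemichannels, and hemichannels of neighbouring cells dock to form gap junctions, through which ions and small metabolites pass between cytoplasms. Pannexins form large-pore channels in the plasma membrane that release ATP and do not usually make gap junctions. Vessel endothelium is known for connexins Cx37 (GJA4), Cx40 (GJA5) and Cx43 (GJA1), of which Cx37 and Cx40 mark arterial endothelium, and connexin channels at cell borders are coupled to the tight junction scaffold ZO-1.

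The targeted mRNA was lower in every siUSP9X library. USP9X stood at 36.5, 68.7, 27.5, 22.3 and 20.7 CPM in siUSP9X replicates 1 to 5 (CPM being counts per 1000000 of TMM-scaled library size), against 415, 283, 330, 323 and 351 CPM in siCtrl replicates 1 to 5 (log2 fold change -3.28 ± 0.32, SE). Totals were 15958362 to 20442278 counts in the siUSP9X libraries and 17716250 to 26467787 counts in the siCtrl libraries. One siUSP9X library, replicate 2, stood apart: its ribosomal protein share was 1.96% of counts, where the remaining siUSP9X libraries had 4.10 to 4.77% and siCtrl had 4.42 to 5.84%. Of 12 endothelial markers, 5 could be tested and edgeR called 0 of them, with 1 at an unadjusted p under 0.05. DESeq2 and limma-voom each called 1 lower, ENG, where they called 1078 and 491 genes lower in all. Without siUSP9X replicate 2 edgeR called 2 lower, ENG and EGFL7, where it called 11.5% of all its tested genes lower. The summed level of the 12 markers was 157 CPM in siUSP9X replicate 2, 334 to 363 CPM in the other 4 siUSP9X libraries and 318 to 392 CPM in siCtrl. ERG was at 0 in all 10 libraries, and PECAM1 had 8 counts in each group over its 5 libraries. The part of cell makeup in the results below was not tested, and in bulk RNA fewer cells of a type and less RNA per cell cannot be told apart.

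GJA1, the gene of connexin Cx43 (ENSG00000152661.8, GRCh38 chromosome 6, 121435577 to 121449727, plus strand), differed most among the members. Its RefSeq promoter window, 250 bases before the start site and 50 from it on (GRCh38.p14, chr6:121435396-121435695, plus strand), is shown because this gene carries the largest difference. The capitals mark an AP-1 motif, TGAGTCA, 48 bases before the start site.
GJA1 promoter: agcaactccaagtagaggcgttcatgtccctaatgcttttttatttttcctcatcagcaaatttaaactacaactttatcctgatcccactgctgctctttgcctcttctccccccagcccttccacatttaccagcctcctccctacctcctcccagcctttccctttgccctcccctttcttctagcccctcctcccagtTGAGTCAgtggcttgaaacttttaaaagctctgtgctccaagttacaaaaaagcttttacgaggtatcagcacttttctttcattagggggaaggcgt
The motif, on either strand, lies in 4.95% of 35116 RefSeq promoter windows of this length. The GJA1 window has 47.0% G and C, against a median of 58.7% over all windows, and holds no match, on either strand, to the GC box GGGCGG, the TCF/LEF core CTTTGA or the T-box motif AGGTGT. A match is a description of the letters and not evidence of binding.

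GJA1 stood at 265, 363, 279, 242 and 277 CPM in siUSP9X replicates 1 to 5, against 96.5, 81.1, 89.2, 76.9 and 90.8 CPM in siCtrl replicates 1 to 5. The groups were far apart, the lowest siUSP9X library lying above the highest siCtrl library, and replicate 2 was the highest of the siUSP9X libraries. The fitted difference was 3.28-fold (log2 fold change 1.71 ± 0.13, SE, n = 5 each), and 1.61 ± 0.08 without siUSP9X replicate 2. Of the 13934 tested genes, 10 had a larger log2 fold change. The spread between libraries, as SD over the mean, was 16.1% in siUSP9X and 9.03% in siCtrl. GJA1P1, a processed pseudogene of GJA1, was listed at 0 in all 10 libraries, so the deposited counting placed none of these reads there.

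In the fit across all tested genes (edgeR quasi-likelihood test, adjusted p under 0.05), 2 members, GJA1 and PANX1, lay past the threshold on the higher side in siUSP9X, where 7.31% of all tested genes were called in either direction and 4.09% higher, and 1 member, GJB2, on the lower side, where 3.22% were. Of the remaining members GJA3, GJC1 and PANX2 lay short of the threshold, and GJA4 and GJA5 had no counts. The siUSP9X and siCtrl values did not overlap for GJA1 and PANX1, with siUSP9X above (7.79% of tested genes), and for GJB2, with siUSP9X below (6.85%). These same values chose the members, so the counts are no test of them and nothing is read from them.

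**Figure D1:**
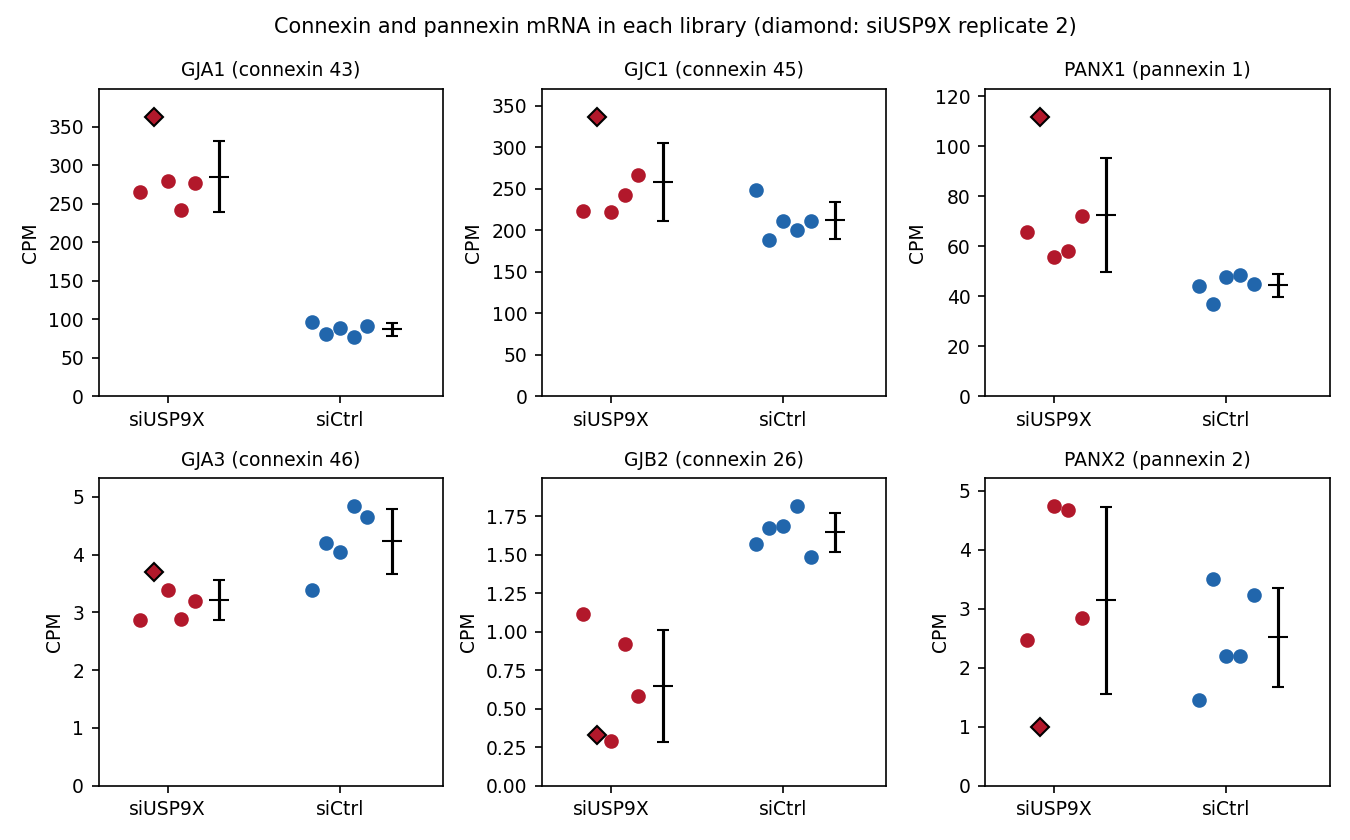
CPM (vertical axes, linear, from 0) of the 6 detected members in each library, siUSP9X left and siCtrl right, with each point 1 library, the diamond siUSP9X replicate 2, and bars the mean ± SD (n = 5). GJA1 in siUSP9X lies between 242 and 363 CPM and in siCtrl between 76.9 and 96.5 CPM, PANX1 is also separated, GJB2 is separated in the other direction, and GJC1, GJA3 and PANX2 overlap.

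GJC1, the gene of connexin Cx45, known from the cardiac conduction system and vascular smooth muscle, was the other well measured connexin (ENSG00000182963.9, chromosome 17, 44798448 to 44830816, minus strand). It had 223, 336, 222, 242 and 266 CPM in siUSP9X, against 248, 189, 211, 200 and 211 CPM in siCtrl. The groups overlapped, with 2 siUSP9X libraries, replicates 2 and 5, above all siCtrl libraries. The log2 fold change was 0.28 ± 0.13 (SE) with all libraries and 0.17 ± 0.09 without siUSP9X replicate 2.

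Within a library, the ratio of GJA1 to GJC1 counts needs no scaling between libraries. It was 1.19, 1.08, 1.26, 0.997 and 1.04 in siUSP9X replicates 1 to 5, against 0.388, 0.43, 0.422, 0.385 and 0.43 in siCtrl replicates 1 to 5. All 5 siUSP9X libraries lay above all siCtrl libraries, and here siUSP9X replicate 2 was in the middle of its group. GJA1 took 48.5 to 54.3% of all connexin counts in the siUSP9X libraries and 26.1 to 28.6% in the siCtrl libraries, while GJC1 took 46.3 ± 2.38% in siUSP9X and 67.2 ± 1.19% in siCtrl (SD, n = 5 each). The counts of all connexins together came to 556 ± 88.3 CPM in siUSP9X and 315 ± 28.95 CPM in siCtrl. The size of these ratios also carries the lengths of the transcripts, which differ between genes, and the comparison between libraries does not.

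**Figure D2:**
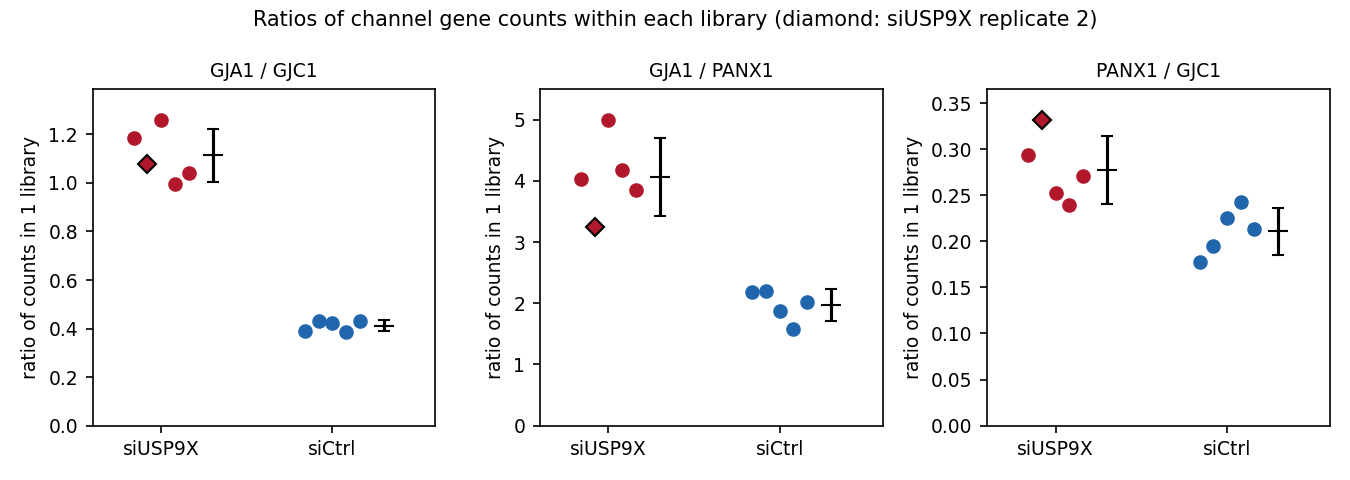
Ratio of counts within each library (vertical axes, from 0) for GJA1 over GJC1, GJA1 over PANX1 and PANX1 over GJC1, siUSP9X left and siCtrl right, with each point 1 library, the diamond siUSP9X replicate 2, and bars the mean ± SD (n = 5). GJA1 over GJC1 runs from 0.997 to 1.26 in siUSP9X and from 0.385 to 0.43 in siCtrl, and PANX1 over GJC1 overlaps between the groups.

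PANX1, the widely expressed pannexin that releases ATP (ENSG00000110218.8, chromosome 11, 94128928 to 94181972, plus strand), was the other member with siUSP9X above siCtrl throughout. Its RefSeq promoter window (GRCh38.p14, chr11:94128591-94128890, plus strand) is shown for comparison with that of GJA1. The capitals mark a GC box on the opposite strand, CCGCCC, which with GGGCGG lies in 45% of all windows.
PANX1 promoter: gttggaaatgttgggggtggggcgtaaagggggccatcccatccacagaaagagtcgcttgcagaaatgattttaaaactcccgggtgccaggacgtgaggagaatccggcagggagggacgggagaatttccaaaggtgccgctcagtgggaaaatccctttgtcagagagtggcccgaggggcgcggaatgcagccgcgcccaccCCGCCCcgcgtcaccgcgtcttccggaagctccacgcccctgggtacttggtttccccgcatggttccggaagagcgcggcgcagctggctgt
The window has 62.3% G and C and no AP-1 match.

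PANX1 stood at 65.6, 112, 55.9, 57.9 and 72.0 CPM in siUSP9X, against 44.1, 36.9, 47.5, 48.6 and 45.1 CPM in siCtrl. The groups did not overlap, and siUSP9X replicate 2 lay far above the other siUSP9X libraries. Its log2 fold change of 0.71 ± 0.18 (SE, 1.63-fold) became 0.50 ± 0.10 when that library was left out. Over the 10 fits that left out a library it ran from 0.50 to 0.79, and it was short of the threshold in the 7 that left out a siCtrl library or siUSP9X replicate 1 or 5. PANX1 counts relative to GJC1 counts were 0.239 to 0.332 in siUSP9X and 0.177 to 0.243 in siCtrl, which overlapped. GJA1 counts relative to PANX1 counts averaged 4.06 ± 0.633 in siUSP9X and 1.97 ± 0.255 in siCtrl (SD, n = 5 each) and did not overlap.

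PANX2, a pannexin known mainly from the brain (ENSG00000073150.13, chromosome 22, 50170731 to 50180294, plus strand), was low and variable. It had 2.47, 0.995, 4.74, 4.68 and 2.84 CPM in siUSP9X, against 1.46, 3.51, 2.19, 2.19 and 3.23 CPM in siCtrl. The groups overlapped, siUSP9X replicates 3 and 4 being the highest of all libraries and replicate 2 the lowest. The SD over the mean was 50.5% in siUSP9X and 33.3% in siCtrl, and the log2 fold change 0.32 ± 0.38 (SE), or 0.55 ± 0.26 without siUSP9X replicate 2. PANX3 had no counts.

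GJB2, the gene of connexin Cx26, known from the cochlea and epithelia (ENSG00000165474.6, chromosome 13, 20187463 to 20193010, minus strand), was the member with siUSP9X below siCtrl throughout, at a very low level. Its RefSeq promoter window (GRCh38.p14, chr13:20192889-20193188, minus strand) is shown because every siUSP9X library lay below siCtrl for this member. The capitals mark, in order, TCAAAG (the TCF/LEF core on the opposite strand, in 12.9% of all windows), GGGCGG and 2 CCGCCC (GC boxes), and AGGTGT (the T-box motif, in 11.4%).
GJB2 promoter: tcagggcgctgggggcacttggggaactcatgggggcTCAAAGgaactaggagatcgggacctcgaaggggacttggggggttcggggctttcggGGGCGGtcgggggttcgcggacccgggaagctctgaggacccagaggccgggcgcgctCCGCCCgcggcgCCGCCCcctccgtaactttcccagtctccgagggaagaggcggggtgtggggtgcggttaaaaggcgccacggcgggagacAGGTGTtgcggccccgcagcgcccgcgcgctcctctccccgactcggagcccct
The window has 71.7% G and C and no AP-1 match.

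GJB2 stood at 1.12, 0.332, 0.293, 0.923 and 0.580 CPM in siUSP9X, against 1.57, 1.67, 1.69, 1.82 and 1.48 CPM in siCtrl. All siUSP9X libraries lay below all siCtrl libraries, and the siUSP9X libraries were spread widely, with an SD of 55.8% of the mean against 7.70% in siCtrl. The 5 siUSP9X libraries together held 55 counts (0.642 CPM, exact 95% Poisson interval 0.484 to 0.836, counting error only) and the 5 siCtrl libraries 167 counts (1.66 CPM, 1.42 to 1.93). The log2 fold change was -1.34 ± 0.33 (SE), and -1.17 ± 0.31 without siUSP9X replicate 2. Only 3 siUSP9X libraries reached the level of the low-count filter, against 5 siCtrl libraries, so GJB2 entered the fit through siCtrl, where it is high, and its place past the threshold supports nothing. Over the 10 fits that left out a library the log2 fold change ran from -1.63 to -1.16, and it was short of the threshold in the 7 that left out a siCtrl library or siUSP9X replicate 3 or 5. Of 5 markers of epithelial cells, where Cx26 is common, 3 were tested, and CDH1 and KRT19 were not. Of the tested markers, 2 (KRT8 and KRT18) were lower by edgeR, DESeq2 and limma-voom, where edgeR called 3.22% of all tested genes lower. None was higher by any of these tools or at an edgeR unadjusted p under 0.05, at which all 3 were lower. Without siUSP9X replicate 2 edgeR also called EPCAM lower (log2 fold change -1.26, edgeR adjusted p = 0.034). That fit called all 3 tested markers lower, and 11.5% of all its tested genes. The summed level of the 5 markers was 2029 to 2755 CPM in siUSP9X and 3313 to 4173 CPM in siCtrl, and none was at 0 in all libraries. The part of these markers in the GJB2 value was not tested.

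GJA3, the lens connexin Cx46 (ENSG00000121743.3, chromosome 13, 20138255 to 20161049, minus strand), lies 26.4 kb from GJB2 on the same strand. It had 2.88, 3.71, 3.40, 2.89 and 3.19 CPM in siUSP9X, against 3.39, 4.21, 4.05, 4.84 and 4.66 CPM in siCtrl. The groups overlapped, with 3 of 5 siUSP9X libraries below all siCtrl libraries. The log2 fold change was -0.40 ± 0.15 (SE), and -0.45 ± 0.16 without siUSP9X replicate 2. GJB6, the third connexin of this cluster and 28951 bases from GJB2, had no counts in any library.

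The connexins that mark arterial endothelium were not detected. GJA4 (Cx37, ENSG00000187513.8, chromosome 1, 34792998 to 34795747, plus strand) and GJA5 (Cx40, ENSG00000265107.2, chromosome 1, 147756199 to 147773362, minus strand) had 0 counts in all 10 libraries. A count of 0 was taken to allow up to 3 counts over a group, a one-sided limit and not the two-sided Poisson interval used elsewhere, which comes to 0.035 CPM over the 5 siUSP9X libraries together and 0.0298 CPM over the 5 siCtrl libraries. Of the 3 endothelial connexins GJA1, GJA4 and GJA5, GJA1 alone had counts in these libraries.

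A few other connexins, which are not members, had counts at a similarly low level. GJB7 (Cx25) had 2.49 to 4.88 CPM in siUSP9X and 2.64 to 3.37 CPM in siCtrl, with 4 siUSP9X libraries above all siCtrl libraries and replicate 2 below them (log2 fold change 0.42 ± 0.19, edgeR adjusted p = 0.177, and 0.55 with an adjusted p of 0.0167 without that library). GJB7 overlaps genes on the opposite strand, and no source used here states whether counting used strand. GJC3 had 8 counts over the siUSP9X libraries and 6 over the siCtrl libraries, and GJD3 had 2 counts in siUSP9X and 9 in siCtrl, too low to test. In all, 8 of the 21 human connexin symbols in the table had 0 counts in every library, and 6 could be tested.

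**Figure D3:**
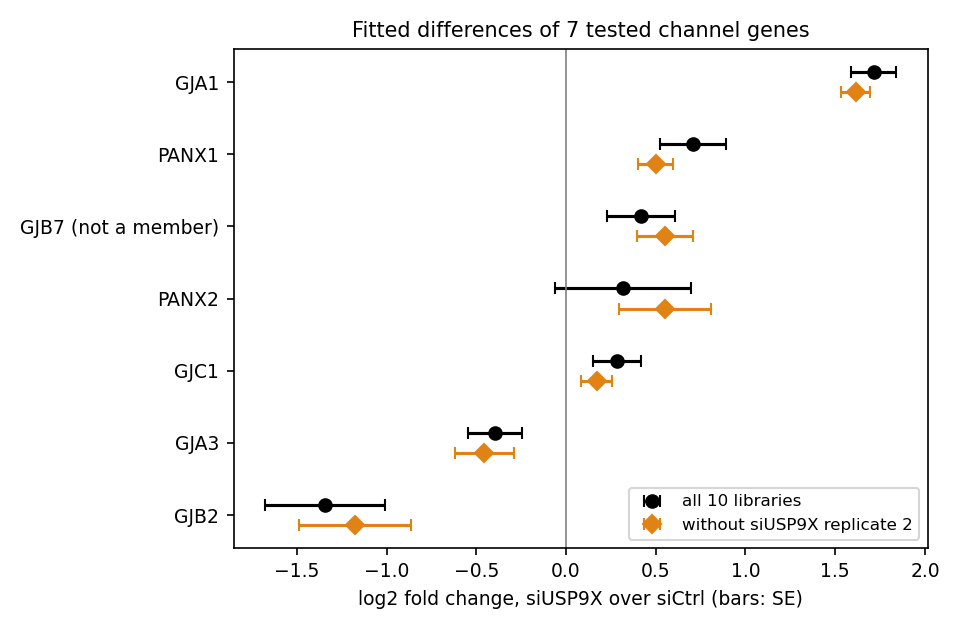
Fitted log2 fold change of siUSP9X over siCtrl (horizontal axis) for 7 tested connexin and pannexin genes, the 6 tested members and GJB7, with bars for the SE, black circles for all 10 libraries and orange diamonds without siUSP9X replicate 2. GJA1 stands at 1.71 and PANX1 at 0.71, GJB2 at -1.34, and leaving out replicate 2 moves PANX1 to 0.50 and GJA1 to 1.61.

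Per kilobase of exon (union of the exons in GENCODE release 29), the order of the members in siUSP9X was GJA1, GJC1, PANX1, PANX2, GJA3 and GJB2, and in siCtrl GJA1, GJC1, PANX1, GJA3, PANX2 and GJB2. The level of GJA1 was 83.5 ± 13.4 CPM per kb in siUSP9X and 25.5 ± 2.30 in siCtrl (SD, n = 5 each). GJC1 had 29.8 ± 5.47 and PANX1 26.2 ± 8.22 CPM per kb in siUSP9X, and these neighbours in the order did not differ beyond their spread. In siCtrl GJC1 had 24.5 ± 2.59 CPM per kb, not apart from GJA1, and PANX1 had 16.04 ± 1.65. PANX2, GJA3 and GJB2 had 1.01 ± 0.512, 0.616 ± 0.0673 and 0.255 ± 0.142 CPM per kb in siUSP9X, and 0.811 ± 0.27, 0.812 ± 0.109 and 0.646 ± 0.0497 in siCtrl. The place of GJC1 depends on the length used: its exons cover 8660 bases but the transcript that the annotation numbers first has 3295 bases, over which its level would be 78.3 ± 14.4 CPM per kb in siUSP9X and 64.3 ± 6.81 in siCtrl. The corresponding levels of GJA1, over its first-numbered transcript of 3083 bases, were 92.5 ± 14.9 CPM per kb in siUSP9X and 28.2 ± 2.55 in siCtrl, so with these lengths GJC1 was the higher of the pair in siCtrl. Over exon unions GJA1 made up 70.8 ± 1.95% of the connexin level in siUSP9X and 45.6 ± 1.41% in siCtrl, and over first-numbered transcripts it made up 50.9 ± 2.23% in siUSP9X and 27.2% in siCtrl.

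The 5 genes whose profile over the 10 libraries was closest to that of GJA1 were DCP2, TGFB2, NPTX1, SYT11 and FIGN. Likeness was the root-mean-square difference of log2(CPM + 0.5) after centring each gene on its own mean, over 10558 genes with at least 5 CPM on average, and it was 0.229, 0.23, 0.237, 0.252 and 0.253 for these genes against a median of 0.887. DCP2, an mRNA decapping enzyme, had 112 to 266 CPM in siUSP9X and 33.2 to 45.95 CPM in siCtrl. TGFB2, a TGF-beta ligand, had 41.2 to 89.6 CPM in siUSP9X and 11.1 to 19.5 CPM in siCtrl. NPTX1, a secreted neuronal pentraxin, had 19.9 to 25.3 CPM in siUSP9X and 6.74 to 9.58 CPM in siCtrl, with an SD of 10.2% of the mean in siUSP9X and 12.8% in siCtrl. SYT11, a synaptotagmin of vesicle traffic, had 16.8 to 22.9 CPM in siUSP9X and 6.13 to 8.82 CPM in siCtrl. FIGN, a microtubule-severing ATPase, had 71.6 to 152 CPM in siUSP9X and 25.9 to 44.3 CPM in siCtrl. In all 5 genes, as in GJA1, siUSP9X replicate 2 was the highest library, and no siUSP9X library overlapped siCtrl. These libraries share 2 groups, and a gene that differs between the groups by a similar amount scores as alike. The 5 genes were picked on these same 10 libraries, so the shared peak in siUSP9X replicate 2 also follows largely from the choice.

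**Figure D4:**
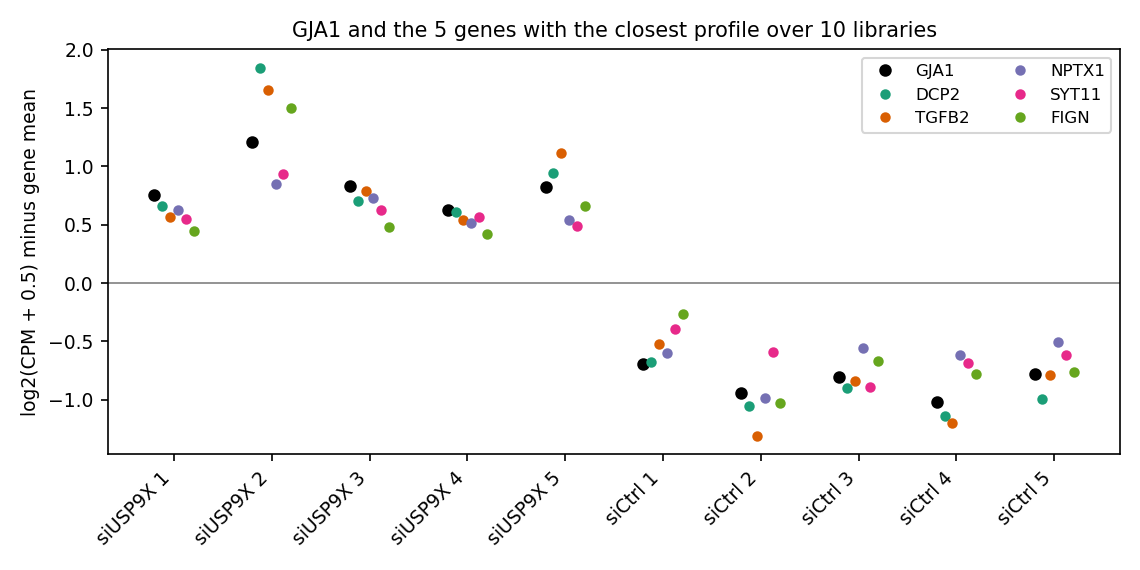
log2(CPM + 0.5) minus the mean of the gene (vertical axis) in each library (horizontal axis, siUSP9X left and siCtrl right) for GJA1 and the 5 genes closest to it, with each point 1 library. All 6 genes lie above their mean in every siUSP9X library and below it in every siCtrl library, and highest in siUSP9X replicate 2. The 5 genes were picked for likeness to GJA1 over these libraries, so this pattern follows largely from the choice.

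Genes that work with these channels were counted in 7 lists with 116 distinct genes, of which 108 could be tested. The lists were chosen with earlier results of these data known, so their counts and p-values are a description and not independent support. Of these 8 were higher, 6 lower and 94 did not pass the threshold (edgeR adjusted p under 0.05), where 4.09% of all tested genes were higher and 3.22% lower. The median log2 fold change of the lists together was 0.05, against 0.03 over all tested genes, and -0.000806 against 0.00718 without siUSP9X replicate 2. Without siUSP9X replicate 2 the lists held 19 higher and 17 lower genes (17.6% and 15.7%), in a fit that called 11.9% of all its tested genes higher and 11.5% lower. Over all genes DESeq2 called 1264 higher and 1078 lower, against 570 and 449 by edgeR. Counts below from DESeq2 or without siUSP9X replicate 2 thus come from fits that call more genes throughout.

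Among 16 tested scaffold and cytoskeleton partners of Cx43, CTNND1 (p120 catenin, at adherens junctions) was higher and CTTN (cortactin, an actin-binding protein) lower, and 14 did not pass. CTTN had 166 to 235 CPM in siUSP9X and 298 to 321 CPM in siCtrl (log2 fold change -0.59 ± 0.10, edgeR adjusted p = 0.00743). CTNND1 had 443 to 806 CPM in siUSP9X and 289 to 371 CPM in siCtrl (0.63 ± 0.17, edgeR adjusted p = 0.0474), and 0.43 without siUSP9X replicate 2. TJP1, the ZO-1 scaffold that binds the tail of Cx43, had 158 ± 57.1 CPM in siUSP9X and 122 ± 17.6 CPM in siCtrl (SD, n = 5 each, log2 fold change 0.37 ± 0.20, edgeR adjusted p = 0.25), and 0.12 without siUSP9X replicate 2, where it stood at 260 CPM. CTNNB1 (beta-catenin) stood at 0.17 ± 0.23 on that scale, and at -0.16 once siUSP9X replicate 2 was left out. The median of this list was 0.17, and 0.09 without that library.

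Among 20 tested kinases and phosphatases that act on Cx43, PTPRM (receptor phosphatase mu), PRKCE (protein kinase C epsilon) and PRKACB (a catalytic subunit of protein kinase A) were higher and 17 did not pass, with a list median of -0.12, or -0.05 without siUSP9X replicate 2. On the lower side edgeR called 0 (1 at an unadjusted p under 0.05), DESeq2 1 (of 1078 over all genes) and limma-voom 0. Without siUSP9X replicate 2 edgeR called 2, where it called 11.5% of all its tested genes lower. PTPRM had 55.1 to 65.0 CPM in siUSP9X and 33.6 to 43.6 CPM in siCtrl (log2 fold change 0.59 ± 0.10, edgeR adjusted p = 0.00672), and PRKCE had 46.5 to 73.1 CPM in siUSP9X and 30.8 to 36.1 CPM in siCtrl (0.68 ± 0.13, edgeR adjusted p = 0.0133). PRKACB stood at 0.82 ± 0.21 on the same scale (edgeR adjusted p = 0.0372), with 92.7 CPM in siUSP9X replicate 2 and 43.7 to 52.6 CPM in the other siUSP9X libraries. SRC, the tyrosine kinase that closes Cx43 channels, had 81.3 ± 10.3 CPM in siUSP9X and 77.9 ± 7.25 CPM in siCtrl (SD, n = 5 each, log2 fold change 0.06 ± 0.12, edgeR adjusted p = 0.742).

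Of 17 tested ubiquitin and endosomal sorting genes of Cx43 turnover, VCP, a segregase that extracts ubiquitinated proteins, was lower and 16 did not pass, with a list median of 0.21, or 0.07 without siUSP9X replicate 2. On the higher side edgeR and limma-voom called 0, with 4 at an edgeR unadjusted p under 0.05. DESeq2 called 4 (of 1264 over all genes), and edgeR with upper-quartile factors or library totals 1 (of 596 and 683). Without siUSP9X replicate 2 edgeR called 5, where it called 11.9% of all its tested genes higher. VCP had 421 to 475 CPM in siUSP9X and 653 to 681 CPM in siCtrl (log2 fold change -0.57 ± 0.08, edgeR adjusted p = 0.0024). NEDD4, the ubiquitin ligase that binds Cx43, had 345 ± 206 CPM in siUSP9X and 193 ± 25.0 CPM in siCtrl (SD, n = 5 each, log2 fold change 0.84 ± 0.30, edgeR adjusted p = 0.103). In siUSP9X replicate 2 NEDD4 reached 712 CPM, and without that library its log2 fold change was 0.40 (edgeR adjusted p = 0.00788). Of 10 tested assembly and transport genes edgeR called 0, with 2 at an unadjusted p under 0.05. DESeq2 called 1 higher (RAB11A, a GTPase of vesicle recycling, named after its values were seen) and limma-voom 0. Without siUSP9X replicate 2 edgeR called 1 higher and 1 lower, where it called 11.9% of all its tested genes higher and 11.5% lower. The list median was 0.16, or 0.10 without siUSP9X replicate 2.

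Among 19 tested transcription factors known to act on GJA1, FOSL2 and STAT3 were higher, TCF7L2 and FOSL1 lower, and 15 did not pass, with a list median of -0.13, or -0.05 without siUSP9X replicate 2. FOSL1 and FOSL2 encode Fos-family partners of the AP-1 dimer, whose motif the GJA1 promoter window above holds. They differed in opposite directions, and whether either acts on GJA1 in these cells was not tested. FOSL2 had 102 to 113 CPM in siUSP9X and 59.3 to 84.8 CPM in siCtrl (log2 fold change 0.52 ± 0.11, edgeR adjusted p = 0.015). FOSL1 had 57.9 to 107 CPM in siUSP9X and 139 to 155 CPM in siCtrl (-0.65 ± 0.15, edgeR adjusted p = 0.0289), lowest in siUSP9X replicate 2 and -0.52 without it. JUN, a Jun-family partner in that dimer, had 88.4 ± 23.6 CPM in siUSP9X and 93.9 ± 4.25 CPM in siCtrl (SD, n = 5 each). Its difference on the log2 scale was -0.09 ± 0.18 (edgeR adjusted p = 0.772), and 0.07 without siUSP9X replicate 2. TCF7L2, a transcription factor of the Wnt pathway, had 7.57 to 8.92 CPM in siUSP9X and 11.9 to 15.4 CPM in siCtrl (-0.73 ± 0.11, edgeR adjusted p = 0.00443). STAT3 had 323 to 444 CPM in siUSP9X and 237 to 289 CPM in siCtrl (0.45 ± 0.11, edgeR adjusted p = 0.0336).

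Of 14 tested pannexin partners and purinergic genes, which handle or sense the ATP that pannexins release, ENTPD2 and ADORA2B were lower and 12 did not pass, with a list median of -0.29, or -0.17 without siUSP9X replicate 2. On the higher side edgeR, DESeq2 and limma-voom called 0, with 1 at an edgeR unadjusted p under 0.05. Without siUSP9X replicate 2 edgeR called 1, where it called 11.9% of all its tested genes higher. ENTPD2, an ectonucleotidase that degrades extracellular ATP, had 0.221 to 1.42 CPM in siUSP9X and 2.56 to 3.60 CPM in siCtrl (log2 fold change -1.68 ± 0.33, edgeR adjusted p = 0.0147), with its lowest value in siUSP9X replicate 2 and -1.42 without it. ADORA2B, an adenosine receptor, had 58.1 to 62.8 CPM in siUSP9X and 73.4 to 80.0 CPM in siCtrl (-0.36 ± 0.08, edgeR adjusted p = 0.0241). NT5E, the ectonucleotidase CD73 that makes adenosine, had a log2 fold change of 0.16 ± 0.21 (edgeR adjusted p = 0.617), and -0.09 without siUSP9X replicate 2. The ATP receptor P2RX7, a known partner of pannexin channels, had 4 counts over the siUSP9X libraries and 1 over the siCtrl libraries.

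Of 12 tested genes of other large-pore and volume channels, ANO6 and LRRC8A were higher and 10 did not pass, with a list median of 0.05. On the lower side edgeR and limma-voom called 0, with 2 at an edgeR unadjusted p under 0.05, and DESeq2 called 2 (of 1078 over all genes). Without siUSP9X replicate 2 edgeR called 1, where it called 11.5% of all its tested genes lower. LRRC8A, the required subunit of the volume-regulated anion channel, had 65.5 to 80.6 CPM in siUSP9X and 49.9 to 58.5 CPM in siCtrl (log2 fold change 0.38 ± 0.10, edgeR adjusted p = 0.038). ANO6, a lipid scramblase and ion channel, had 544 to 1186 CPM in siUSP9X and 304 to 444 CPM in siCtrl (0.84 ± 0.22, edgeR adjusted p = 0.0392), and 0.57 without siUSP9X replicate 2, its highest library.

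**Figure D5:**
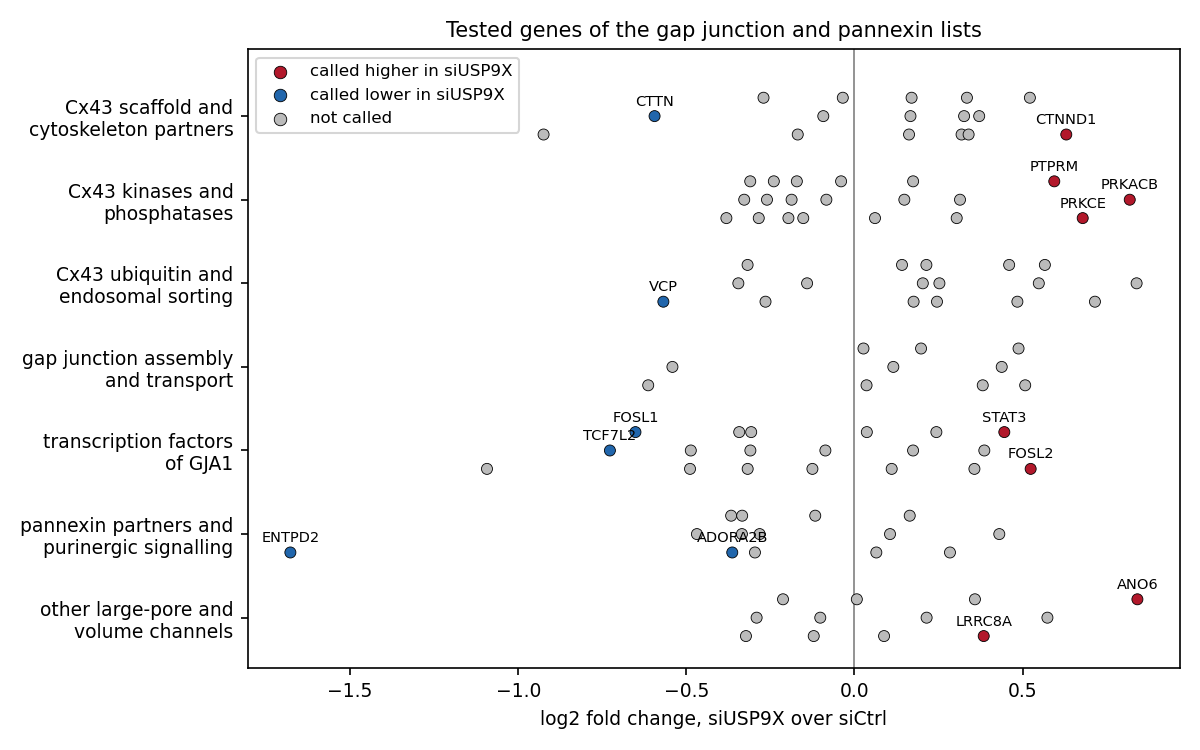
Log2 fold change of siUSP9X over siCtrl (horizontal axis) for the tested genes of the 7 lists (rows), with each point 1 gene, red called higher, blue called lower and grey not called at an edgeR adjusted p under 0.05. The 14 called genes are named, from ENTPD2 at -1.68 to ANO6 at 0.84.

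The calls of CTTN, PTPRM, PRKCE, VCP, TCF7L2, FOSL2 and ENTPD2 held whichever 1 of the 10 libraries was left out. Those of the other 7 genes did not: CTNND1 and LRRC8A kept theirs only without siUSP9X replicate 2, ANO6 without siUSP9X replicate 2 or 4, FOSL1 without siUSP9X replicate 2, 3 or 4, STAT3 without these or siCtrl replicate 1, and PRKACB and ADORA2B without siCtrl replicate 1 or siUSP9X replicate 1, 2 or 4. Their highest edgeR adjusted p over these fits was 0.0794 for ADORA2B and FOSL1, 0.0974 for STAT3, 0.0994 for PRKACB, 0.101 for LRRC8A, 0.103 for ANO6 and 0.121 for CTNND1. With all libraries but other settings, FOSL2, STAT3 and ADORA2B lost their calls with no low-count filter (edgeR adjusted p = 0.0537, 0.113 and 0.127). CTNND1 lost its call with DESeq2's size factors (0.051), and LRRC8A with upper-quartile factors (0.0503), library totals (0.0538) or no filter (0.198). With replicate number added to the fit as a block, every gene named in this paragraph lost its call. The edgeR adjusted p then ran from 0.0641 for TCF7L2 to 0.203 for CTNND1.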

How the data were processed

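The deposited table holds whole-number counts per gene symbol, 1 column per library, not normalized by the authors. Per the submitters' processing notes, RSEM, DESeq2 and the build hg38 belong to the processing, with no versions, roles or order given. The aligner, the annotation and whether the counts are rounded RSEM estimates are not given in the sources used here. TRIzol extraction and an Illumina stranded mRNA kit are given in the labels' protocols. If the counts are rounded estimates, reads shared by similar genes were divided before deposit.

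All 58735 lines entered the low-count filter (filterByExpr with a minimum count of 10), and the 13934 that passed entered 1 fit. This was the edgeR 4.0.16 quasi-likelihood test with robust estimation (R 4.3.3), TMM factors and group as the only term. It was two-sided, with Benjamini-Hochberg adjustment over the 13934 tested genes and a threshold of 0.05. CPM use TMM-scaled library sizes, and SE is the log2 fold change over the root of the F statistic. The fit was tested on simulated data. The chi-square over degrees of freedom between replicates of a group was never under 5.25, and every library counted as its own replicate. Lengths and coordinates come from GENCODE release 29 (GRCh38) by symbol, and promoter windows of 5 of the 8 members from RefSeq (GRCh38.p14). Intervals are exact Poisson at 95%, computed with scipy 1.17.1, and cover counting error only.

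The members, the pathway lists and the rule for named genes were chosen with earlier results of these data known. The rule named USP9X, the members, other family genes with at least 10 counts, up to 4 called genes per list (smallest p first), 8 further genes in any case (TJP1, CTNNB1, SRC, NEDD4, JUN, P2RX7, NT5E and LRRC8A), and the 5 genes closest to GJA1. Some other family genes are not reported here. Alternatives were other scaling factors, other filters, DESeq2 1.42.0, limma-voom (limma 3.58.1), the replicate block, each library left out, and other gene lengths.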

Additional observations from a re-analysis of the deposited data

Results flagged for a closer look

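In 13 of 70 groups of 5 libraries, 1 library lay far from the other 4 (gap to its nearest neighbour over 0.71 of the group's range, which chance gives in about 1 of 20 independent groups). In 11 of the 13 it was siUSP9X replicate 2. The 70 groups reuse the same libraries, and their genes were partly chosen on these values, so that rate cannot be set against 13 of 70. Among the members this was PANX1, at 112 CPM in siUSP9X replicate 2, where the other 4 of the group had 55.9 to 72.0 CPM. Of the genes closest to GJA1, siUSP9X replicate 2 held 266 CPM of DCP2 (112 to 142 CPM in the others), 152 CPM of FIGN (71.6 to 84.5 CPM) and 22.9 CPM of SYT11 (16.8 to 18.5 CPM). DCP2, FIGN and SYT11 were picked for a profile like that of GJA1, which was itself highest in that library.

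Of the pathway genes, that library held 806 CPM of CTNND1 (443 to 481 CPM in the other siUSP9X libraries), 806 CPM of CTNNB1 (339 to 373 CPM), 260 CPM of TJP1 (125 to 138 CPM), 712 CPM of NEDD4 (214 to 280 CPM), 1186 CPM of ANO6 (544 to 629 CPM) and 92.7 CPM of PRKACB (43.7 to 52.6 CPM). JUN was low there, at 47.1 CPM against 94.1 to 107 CPM. In siCtrl replicate 2, PTPRM stood at 33.6 CPM against 40.7 to 43.6 CPM in the other siCtrl libraries, and NPTX1 at 6.74 CPM against 8.81 to 9.58 CPM.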

How the results depend on the processing

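The log2 fold changes of the 6 tested members kept their sign under every alternative that tested them. GJA1 and USP9X kept their calls in all of them, GJA1 with log2 fold changes of 1.61 to 1.77 and USP9X of -3.67 to -3.14 with a library left out. Members called higher numbered 1 or 2, and called lower 0 or 1, with a library left out. Those fits called 170 to 1674 genes higher and 189 to 1620 lower over all genes. With all libraries 4.09% of tested genes were higher and 3.22% lower, and without siUSP9X replicate 2 11.9% and 11.5%. The members were chosen on these same values, so a kept call is no support for a member. The filter of 5 CPM in 5 libraries left GJB2, GJA3 and PANX2 untested, with 0 members lower.

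Over all genes DESeq2 called 1264 higher and 1078 lower, and leaving out a library gave 170 to 1674 higher (170 without siCtrl replicate 3, 1674 without siUSP9X replicate 2) and 189 to 1620 lower (the same libraries). In the pathway lists DESeq2 called 18 higher and 16 lower, and leaving out a library gave 3 to 19 and 4 to 17. Without siUSP9X replicate 2 the log2 fold changes of CTNNB1, JUN and NT5E changed sign, with none called, and the cause was not tested. With a library left out, CTNNB1 ran from -0.16 to 0.249, JUN from -0.165 to 0.075 and NT5E from -0.085 to 0.274.

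Same-numbered libraries did not deviate together (correlations -0.42 to 0.23, and no library correlated best with its own number). Deviations were taken from the group mean, which siUSP9X replicate 2 shifts. Its chi-square over degrees of freedom against the other siUSP9X libraries was 188 to 241, where those had 5.25 to 9.19 among themselves. The correlations therefore cannot show whether the numbers pair the libraries. The replicate block gave 34 higher and 57 lower genes, 1 higher member (GJA1) and 0 lower, and 0 and 0 genes in the pathway lists. GJB2, PANX2 and GJA3 rest on 55 to 431 counts per group.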
